A study of Ovis aries with 12 samples.

Results

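The mitochondrial ribosomal protein genes were followed in embryos of 2 sheep breeds (Ovis aries). The study set Hulunbuir Short-tail sheep as its experimental breed against Ujumqin sheep as control. Embryos came from day 16 or day 25 of each breed, which makes 4 groups of 3 libraries. The labels name no genotype or treatment, and all 4 groups share the dissociation of the embryo into single cells with enzymes before total RNA was extracted. RNA was then sequenced in bulk. Members were the genes of the deposited table whose name starts with MRPL or MRPS followed by a number, which gave 64 of the 26247 genes listed. By name, 41 belong to the large subunit of the mitochondrial ribosome and 23 to the small subunit, and the table describes all 64 as ribosomal proteins. Another 12 genes are described there as mitochondrial ribosomal proteins but carry no such name, and they are reported apart from the 64.

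The mitochondrial ribosome, or mitoribosome, translates the few mRNAs that the mitochondrial genome still encodes, all of them for subunits of the respiratory chain and the ATP synthase. Its rRNA is transcribed inside the mitochondrion, whereas every protein of it is encoded in the nucleus, made in the cytosol and imported. The small subunit binds the mRNA and decodes it, and the large subunit forms the peptide bond and passes the new chain to the inner membrane. Part of the proteins descend from those of the bacterial ribosome, and the rest were added later in evolution.

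Each library held 30464606 to 55455815 counts on genes, and 16794 to 17995 genes had at least 1 count. All 64 members passed the filter used for testing, a level of at least 1 FPKM (fragments per kilobase of gene, scaled to library size) in at least 3 of the 12 libraries, as did 14595 genes in all. The lowest count of a member in a library was 39, for MRPL57. Replicate libraries differed more at day 16 than at day 25, with a common biological coefficient of variation over all genes tested of 43.8% against 18.1%. Whether replicates are separate ewes or embryos is not in the labels, so the p-values rest on differences between libraries that may be technical. Summed FPKM of 4 neural markers ran from 8.13 to 108 in the day 16 libraries and from 204 to 281 at day 25, with DCX at 0 counts in at least 1 library of each day 16 group. Summed FPKM of 7 trophoblast markers ran the other way, from 1397 to 4432 at day 16 and from 264 to 447 at day 25, with CDX2 at 0 counts in at least 1 library of each day 25 group. Markers of the endometrium, the maternal lining of the uterus, summed to 25.6 to 51.1 FPKM over the 12 libraries, with PGR and ESR1 at 0 counts in at least 1 library of each group.

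The members were expressed at a high level for the genes of the table, and both subunits had close middle levels. The median of the gene means over 12 libraries was 48.8 FPKM for the large and 49.1 FPKM for the small subunit, which lay at the 85.6th percentile of all genes tested in both cases. Large subunit genes ranged from 7.54 FPKM for MRPL57 to 175 FPKM for MRPL52, and MRPL32 (10.3), MRPL14 (123) and MRPL17 (126 FPKM) were the next at either end. Small subunit genes ranged from 13.1 FPKM for MRPS18B to 115 FPKM for MRPS16, with MRPS22 at 13.9, MRPS21 at 102 and MRPS25 at 110 FPKM. The mRNA level thus differed 23.2-fold between genes of the large and 8.81-fold between genes of the small subunit.

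**Figure D1:**
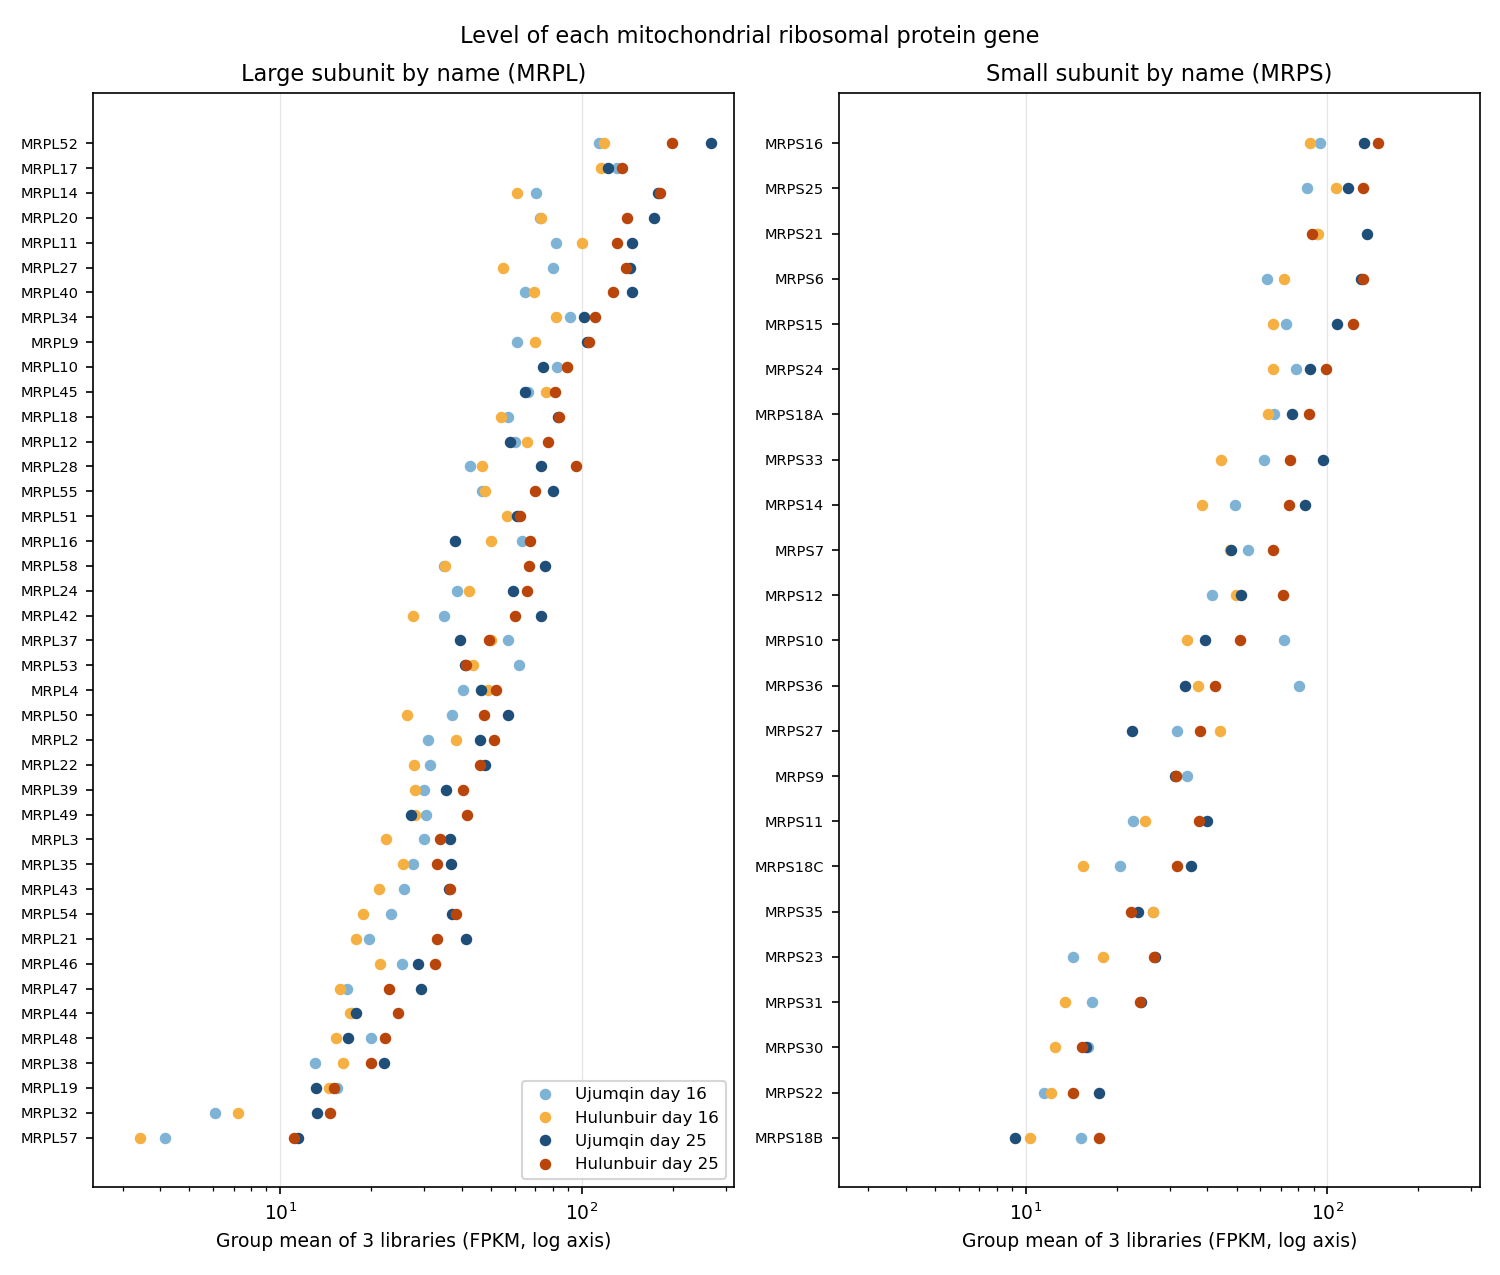
Level of each of the 41 large and 23 small subunit genes, ordered by the mean over 12 libraries. Each point is the mean of the 3 libraries of a group in FPKM on a log axis; MRPL52 and MRPS16 are at the top and MRPL57 and MRPS18B at the bottom.

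Members lie on 22 chromosomes of the Oar_v3.1 assembly, with 10 on chromosome 1 and 8 on chromosome 11. On chromosome 20 the table places 5 of them, MRPL2, MRPL14 (chr20:17718986-17722210), MRPS10 (chr20:16025813-16034165), MRPS18A (chr20:17255738-17280646) and MRPS18B (chr20:27432318-27439013). Most members are short: the median length, worked out from the ratio of count to FPKM, was 706 bases, against 1645 bases for the 14439 tested genes with a length. When those genes were cut into 3 classes of equal size, 48 members fell in the short class (under 1138 bases), 11 in the middle and 5 in the long class (over 2356 bases).

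Replicates of a group were closer together for the members than for genes in general. The spread was taken on CPM, which are counts per library size scaled by TMM factors. In Ujumqin at day 16 the median coefficient of variation within a group was 10.5% for members against 24.2% for all genes tested. In Hulunbuir at day 16 it was 15.7% against 26.4%. At day 25 it was 10.9% against 14.6% in Ujumqin and 5.34% against 8.10% in Hulunbuir. Well expressed genes have less counting error, so this is a description and not a comparison at equal level. The widest spread of a member was that of MRPS10 in Ujumqin at day 16, 46.4%.

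Among the 64 members, the ratio of the subunits' mean levels was higher at day 25 than at day 16 in both breeds, but the ratio of their medians was higher in Ujumqin alone. The mean FPKM of the 41 large subunit genes divided by that of the 23 small subunit genes was 0.972, 0.921 and 0.988 in the 3 Ujumqin libraries of day 16 and 1.02, 1.03 and 1.003 in Hulunbuir at that age. The day 25 libraries had ratios of 1.13, 1.17 and 1.11 in Ujumqin and of 1.09, 1.10 and 1.07 in Hulunbuir. No day 16 library reached the lowest day 25 library, and the breeds stood in opposite order at the 2 ages. The ratio of medians, which the most abundant genes move less, was 0.699 to 0.827 in Ujumqin and 1.02 to 1.12 in Hulunbuir at day 16, and 1.14 to 1.20 and 0.977 to 1.08 at day 25, so that on medians the ages overlapped in Hulunbuir and the group mean was lower at day 25 (1.02 ± 0.05, against 1.08 ± 0.05 at day 16, SD, n = 3). With MRPS18A and MRPS30 counted in the large subunit, where structures place them, and MRPS36 left out, the ratio of means was 0.948 to 0.989 in Ujumqin and 0.964 to 1.01 in Hulunbuir at day 16, and 1.03 to 1.10 and 1.02 to 1.05 at day 25. The ages then still did not overlap within a breed, while the breeds did overlap at either age. The members' share of all counts was 0.198 to 0.242% at day 16 and 0.291 to 0.324% at day 25, again with no overlap between ages. These sums over members carry no test. All ratios leave out mitoribosomal genes of either subunit that the table does not name MRPL or MRPS. Outside them, MRPS26 was at 30.2 FPKM at day 16 and 101 FPKM at day 25 in Ujumqin. MRPL41 was at 86.8 and 180 FPKM in Hulunbuir. Ratios with such genes included were not computed.

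**Figure D2:**
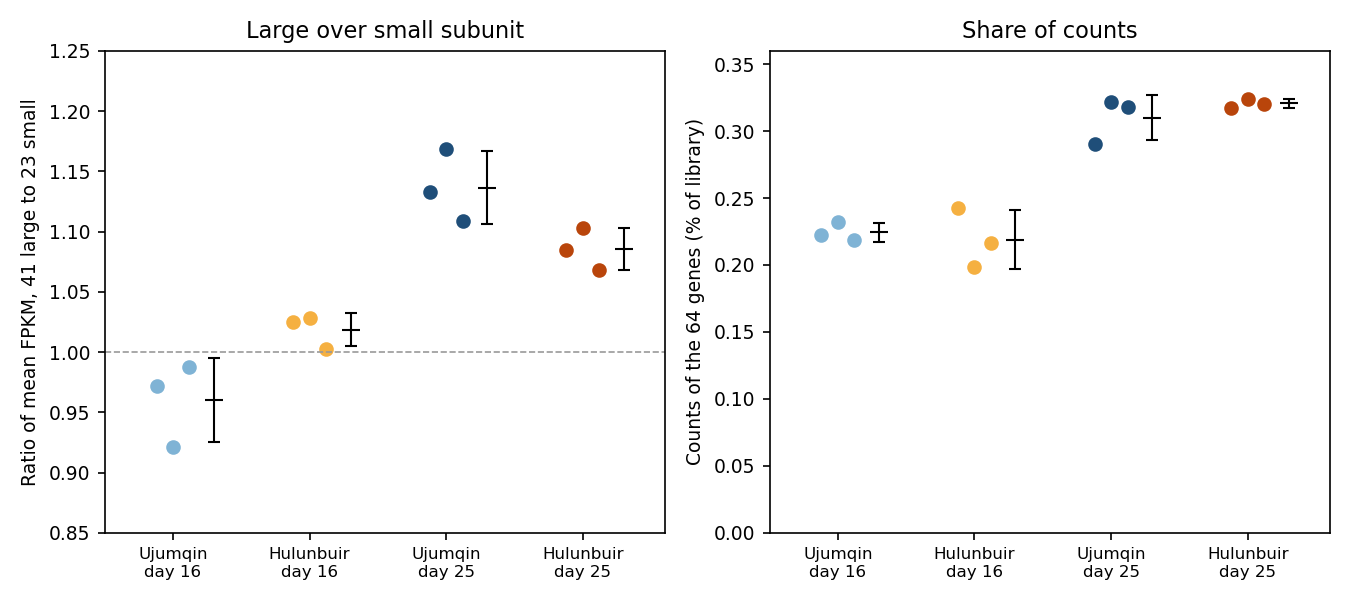
Left, mean FPKM of the large subunit genes divided by that of the small subunit genes in each library; right, counts of the 64 genes as a percent of all counts of the library. Points are libraries and bars the group mean ± SD of 3; the left axis does not start at 0, and the day 25 libraries lie above all day 16 libraries in both panels.

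The age comparison asked which genes differed between day 16 and day 25 of the same breed. In Ujumqin, 38 of 64 members rose (59.4%) and 4 fell, against 30.7% of all genes tested that were higher and 32.9% that were lower at day 25 (edgeR quasi-likelihood test on TMM-scaled counts, Benjamini-Hochberg adjusted p under 0.05 over 14595 genes). Of the large subunit 26 of 41 rose and 2 fell, and of the small subunit 12 of 23 rose and 2 fell. The median log2 change was 0.72 for the large subunit, 0.59 for the small subunit and -0.07 for all genes tested. In 11 members the rise was at least 2-fold. The upper quartile of the log2 change was 0.92 over the members and 0.97 over all genes tested. With libraries scaled by their totals, 36 of the rises and all 4 falls were called again.

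MRPL57, a small protein found only in mitochondrial ribosomes, had the largest rise in Ujumqin. Its level was 1.26, 1.30 and 1.19 CPM (counts per library size, scaled by TMM factors) at day 16 and 2.90, 4.64 and 3.87 CPM at day 25. The lowest day 25 library was thus above every day 16 library, and the rise was 3.04-fold (log2 1.60 ± 0.32 SE, edgeR adjusted p = 0.0011). MRPL14, which has a bacterial homolog and lies at the face of the large subunit that meets the small one, went from 33.7, 36.9 and 32.7 CPM to 78.5, 105 and 107 CPM. The ages did not overlap, and the rise was 2.81-fold (log2 1.49 ± 0.17, edgeR adjusted p = 2.67e-05).

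MRPL20, an rRNA-binding protein needed for assembly of the bacterial large subunit, rose from 35.3, 37.0 and 36.2 CPM to 84.8, 103 and 97.3 CPM (log2 1.39 ± 0.13). MRPL52, the most abundant member and one with no bacterial homolog, rose from 48.8, 45.3 and 47.6 CPM to 102, 137 and 131 CPM (log2 1.38 ± 0.16). MRPL40, also specific to mitochondria, rose from 41.1, 44.0 and 44.9 CPM to 77.6, 126 and 122 CPM (log2 1.32 ± 0.19). In all 5 genes the first Ujumqin library of day 25 was the lowest of that group, and it was still above every library of day 16. These genes were named from calls without overlap. Over all 14595 genes tested, 5011 were higher and 4963 lower at day 25 in Ujumqin without overlap. Of the 64 members these were 41 and 4.

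The 4 members that fell with age in Ujumqin were MRPS36, MRPS10, MRPL16 and MRPL53. MRPS36 was at 24.0, 39.8 and 19.998 CPM at day 16 and at 13.7, 11.7 and 12.9 CPM at day 25, a 2.18-fold fall (log2 -1.13 ± 0.24, edgeR adjusted p = 0.0017). The protein was named as a small subunit component, but later work placed it in the alpha-ketoglutarate dehydrogenase complex of the citric acid cycle. MRPL16, which lines the region where tRNAs meet the peptidyl transferase centre, went from 52.2, 63.3 and 45.5 to 38.6, 34.7 and 32.3 CPM (log2 -0.61 ± 0.20). Its call was lost without the second Ujumqin library of day 16 (edgeR adjusted p = 0.0687). MRPL53 went from 24.2, 26.4 and 19.7 to 17.4, 17.7 and 15.4 CPM (log2 -0.47 ± 0.17). Without that same library its adjusted p in edgeR was 0.0887, and 0.0681 without the library of day 25 numbered 3. The MRPL53 call was also lost in edgeR on the 6 Ujumqin libraries alone (adjusted p = 0.0505) and in limma voom (adjusted p = 0.0543). MRPS10, which helps to form the head of the small subunit, was at 43.3, 71.5 and 27.98 CPM at day 16 and at 27.2, 28.7 and 29.1 CPM at day 25 (log2 -0.75 ± 0.27), and its ages overlapped. Its call was lost in 5 of 13 other settings: in the 6 Ujumqin libraries alone (edgeR adjusted p = 0.0776), without the second library of day 16 (0.156) and without any 1 library of day 25 (0.0504 to 0.0591). With the second library of day 16 or the third of day 25 left out, 2 members fell.

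In Hulunbuir, 28 of 64 members rose (43.8%) and 0 fell with age, against 18.9% of all genes tested that were higher and 21.6% that were lower (edgeR as above). An unadjusted p under 0.05 in edgeR was reached by 36 of the 64 members and by 7230 of the 14595 genes tested. The rises came from 21 of 41 large and 7 of 23 small subunit genes. The median log2 change was 0.41 in both subunits and -0.04 in all genes tested, and 3 members rose at least 2-fold. The upper quartile of the log2 change was 0.66 over the members and 0.57 over all genes tested. All 28 rises were called again on library totals, which gave 40 rises and moved the median of all genes to 0.14 (to -0.16 in Ujumqin) and the share of higher calls among all calls from 46.6% to 61.7%. MRPL57 and MRPL14 again had the largest rises. MRPL57 went from 1.08, 1.03 and 0.832 CPM to 2.50, 3.30 and 2.71 CPM (2.89-fold, log2 1.53 ± 0.32, edgeR adjusted p = 0.0033). MRPL14 went from 33.8, 28.1 and 23.4 CPM to 72.2, 82.9 and 71.8 CPM (2.66-fold, log2 1.41 ± 0.17, edgeR adjusted p = 0.00014). For both genes every day 25 library was at more than 2 times the highest day 16 library.

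MRPL27, which in bacteria reaches into the peptidyl transferase centre, rose from 28.6, 29.6 and 20.6 CPM to 58.5, 63.3 and 56.7 CPM in Hulunbuir (2.27-fold, log2 1.18 ± 0.15). MRPL42, with no bacterial homolog, rose from 10.01, 12.8 and 11.2 to 23, 23.1 and 20.1 CPM (log2 0.96 ± 0.17). MRPS18C rose from 7.40, 7.29 and 6.46 to 14.0, 11.8 and 13.0 CPM (log2 0.88 ± 0.20). The ages did not overlap in any of the 3 genes, which were named from calls without overlap. Over all 14595 genes tested, 4229 were higher and 4180 lower at day 25 in Hulunbuir without overlap. Of the 64 members these were 39 and 4.

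Both breeds shared 27 of the rising members, which is 71.1% of those in Ujumqin and 96.4% of those in Hulunbuir. The same overlap over all genes tested was not counted, so these shares stand without a background. MRPL46 was called in Hulunbuir alone, and MRPL2, MRPL11, MRPL35, MRPL38, MRPL39, MRPL55, MRPS11, MRPS21, MRPS22, MRPS23 and MRPS25 in Ujumqin alone. The ages of each breed are separate libraries, so no control is shared between these 2 comparisons. Both came from the same fit of 12 libraries, however, and same-numbered day 16 libraries of the breeds deviated together. The 2 comparisons are thus not fully independent. Of 36 members with a bacterial homolog, 22 rose (61.1%) and 2 fell in Ujumqin and 17 rose (47.2%) in Hulunbuir. Of 28 without one, 16 rose (57.1%) and 2 fell in Ujumqin and 11 rose (39.3%) in Hulunbuir.

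**Figure D3:**
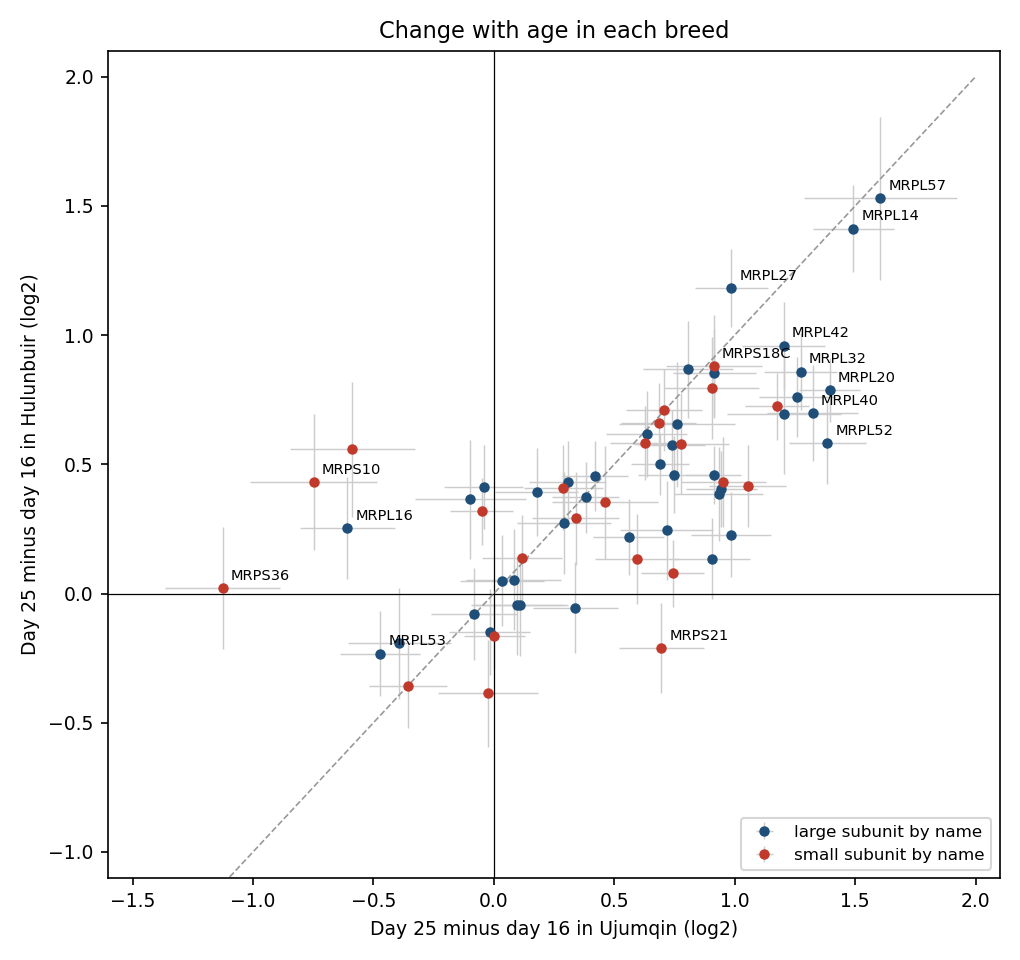
Log2 change from day 16 to day 25 of each of the 64 genes in Ujumqin (horizontal) and in Hulunbuir (vertical), with standard errors. Most points lie at upper right; MRPL57 and MRPL14 are highest in both breeds, and MRPS36, MRPS10 and MRPL16 lie at left, with Hulunbuir changes of 0.02, 0.43 and 0.25 that were not called. The dashed line marks equal changes.

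Gene length moved with age over the whole table. In the short class the median log2 change with age was 0.43 for all genes and 0.66 for the 48 members in Ujumqin, and 0.30 and 0.43 in Hulunbuir. In the middle class it was -0.24 for all genes and 0.38 for the 11 members in Ujumqin, and -0.07 and 0.37 in Hulunbuir. In the long class it was -0.34 and 0.91 in Ujumqin and -0.32 and 0.14 in Hulunbuir, over 5 members. Members were thus above the genes of their own length class in all 6 medians, and by less in the short class than over the whole table in both breeds. Summed erythroid markers went from 850 to 3779 FPKM at day 16 to 1860 to 2379 FPKM at day 25 in Ujumqin, and from 73.7 to 151 FPKM to 15471 to 18297 FPKM in Hulunbuir. Yolk sac and liver markers went from 23590 to 58171 FPKM to 5206 to 8019 FPKM in Ujumqin, and from 4152 to 12479 FPKM to 19819 to 21308 FPKM in Hulunbuir. Both sums were thus higher at day 25 in Hulunbuir, while in Ujumqin the erythroid sums overlapped between ages and the yolk sac and liver sums were lower at day 25. The part of length, and of these, the trophoblast and the neural markers, in the members' rises was not tested. In bulk RNA, more cells of a type and more RNA per cell cannot be told apart.

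The breed comparison at day 16 called no member. Among all genes tested 0.0137% were higher and 0.00685% lower in Hulunbuir (edgeR on the 6 libraries of that age). In that test 5 of the 64 members and 2955 of the 14595 genes had an unadjusted p under 0.05. The same test fitted with the 12 libraries together called 0 members higher and 5 lower (MRPS36, MRPS10, MRPL27, MRPL3 and MRPL53). Over all 14595 genes tested that fit called 1235 higher and 1224 lower, so the members are to be read beside these counts. DESeq2 called 0 members higher and 2 lower, and limma voom called 0 in both directions. With the replicate number as a block, 130 genes were higher and 163 lower, again with 0 members among them. The median log2 difference was -0.18 in the large and -0.19 in the small subunit, against 0.01 in all genes tested.

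The 3 members with the smallest p at day 16 were MRPS36, MRPS10 and MRPL27. MRPS36 stood at 24.0, 39.8 and 19.998 CPM in Ujumqin and at 13.1, 13.3 and 10.5 CPM in Hulunbuir (log2 -1.18 ± 0.30, edgeR adjusted p = 0.131). MRPS10 stood at 43.3, 71.5 and 27.98 against 18.6, 24.0 and 21.3 CPM (log2 -1.16 ± 0.34, edgeR adjusted p = 0.151). MRPL27 stood at 37.6, 42.6 and 39.9 against 28.6, 29.6 and 20.6 CPM (log2 -0.61 ± 0.21, edgeR adjusted p = 0.181). In all 3 genes every Ujumqin library was above every Hulunbuir library, and in MRPS36 and MRPS10 the second Ujumqin library was the highest by a wide margin. Such a gap between the breeds was also found in 1924 of the 14595 genes tested and in 15 of the 64 members. Summed erythroid markers were 850 to 3779 FPKM in Ujumqin and 73.7 to 151 FPKM in Hulunbuir at this age, and yolk sac and liver markers 23590 to 58171 against 4152 to 12479 FPKM, all 8 of either list detected in each library. Other sums were lower in Ujumqin. They were 61.7 to 211 against 523.5 to 1182 FPKM for 5 heart markers. For 6 skeletal muscle markers they were 8.73 to 29.1 against 33.2 to 98.6 FPKM. Of these MYOD1, MYOG and MYF6 were at 0 counts in at least 1 library of either breed. Endometrium markers stood at 28.8 to 32.7 against 44.8 to 51.1 FPKM. Neural, trophoblast and leukocyte sums overlapped between the breeds. The part of all these markers in the day 16 values was not tested.

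At day 25 the breeds differed in 10 members under both ways of scaling the libraries. MRPL16, MRPS18B and MRPS27 were higher in Hulunbuir, and MRPL20, MRPL21, MRPL47, MRPL52, MRPS21, MRPS22 and MRPS33 were lower. The share of all genes called under both scalings was not counted, so these 10 are a list without a background. By TMM factors, which set the bulk of genes equal between libraries, 3 of 64 members were higher and 28 lower in Hulunbuir, whereas by library totals 12 were higher and 7 lower. Over all genes tested 23.3% were higher and 22.7% lower by TMM, so that 50.6% of calls were higher, and 41.4% and 10.2% by library totals, where 80.3% of calls were higher (edgeR on the 6 libraries of that age, adjusted p under 0.05). The direction of the group as a whole therefore flips with the scaling. Its median log2 difference was -0.30 by TMM and 0.02 by library totals, while the median of all genes moved from 0.03 to 0.35. Relative to the median of all genes the members stood at -0.33 under both, and at -0.27 on the deposited FPKM. The change of scaling moved all genes by nearly the same amount, so the equal offset under both was nearly fixed beforehand. Gene length also moved with breed at day 25. By TMM the median of all genes was -0.15 in the short, 0.13 in the middle and 0.08 in the long class. Members were at -0.30, -0.18 and -0.38 in these classes. The part of length in the members' offset was not tested.

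**Figure D4:**
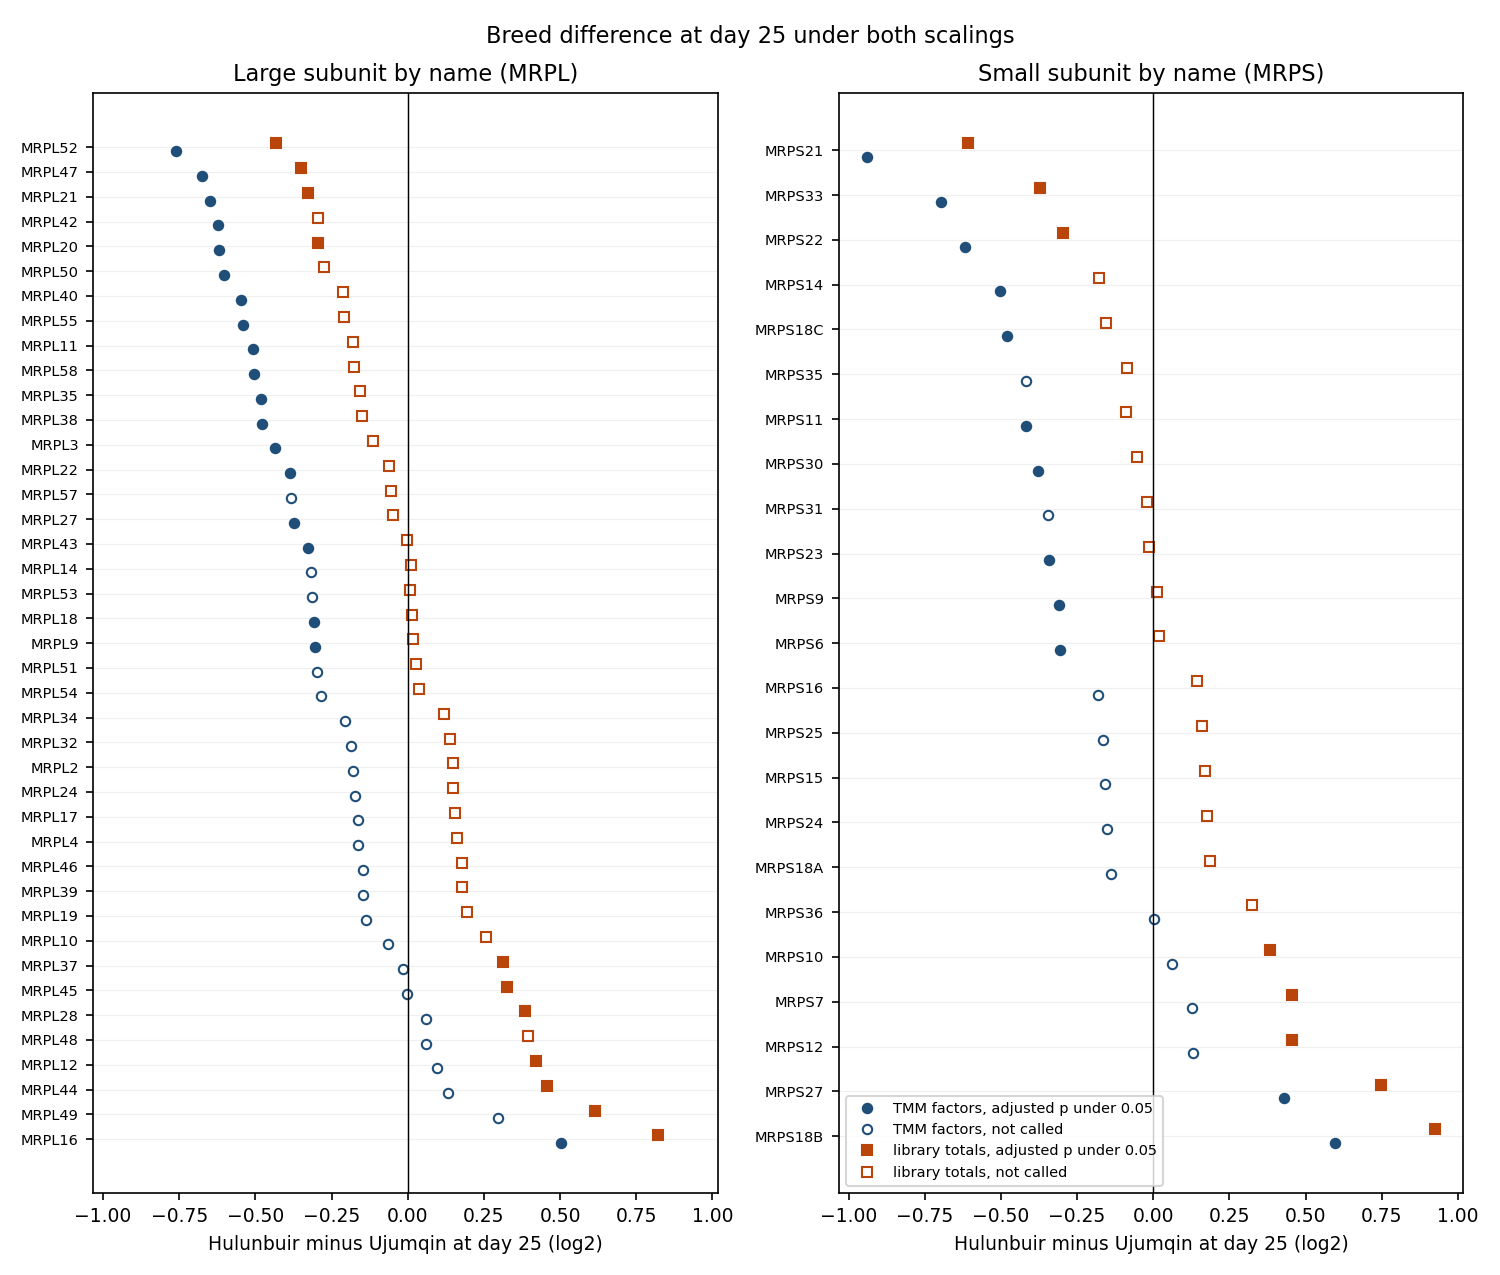
Hulunbuir minus Ujumqin at day 25 of each gene in log2, by TMM factors (circles) and by library totals (squares); filled symbols have an adjusted p under 0.05. Library totals shift every gene to the right, from 3 higher and 28 lower to 12 higher and 7 lower, and only MRPL16, MRPS18B and MRPS27 are filled on the higher side and 7 genes on the lower side under both.

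Among the genes lower in Hulunbuir under both scalings, MRPS21 had the largest difference. This homolog of a bacterial small subunit protein that takes part in the start of translation was at 31.3, 50.3 and 50.9 CPM in Ujumqin and at 22.7, 22.8 and 21.7 CPM in Hulunbuir. The groups did not overlap, although the first Ujumqin library was well below the rest of its group, and the level was 1.92-fold lower (log2 -0.94 ± 0.18, edgeR adjusted p = 0.0030; -0.61 by library totals). MRPL52 was at 102, 137 and 131 against 65.6, 79.3 and 67.0 CPM (log2 -0.76 ± 0.13; -0.43 by library totals).

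MRPS33, a small subunit protein without a bacterial homolog, was at 36.9, 39 and 41.9 against 23.3, 24.4 and 23 CPM (log2 -0.70 ± 0.09; -0.37 by library totals). MRPL47, whose bacterial homolog borders the peptide exit tunnel, was at 44.3, 52.3 and 55.8 against 31.6, 30.5 and 30.6 CPM (log2 -0.68 ± 0.10; -0.35 by library totals). MRPL21 was at 25.8, 29.7 and 26.6 against 17.4, 16.4 and 17.0 CPM (log2 -0.65 ± 0.10; -0.33 by library totals). In these 3 genes the libraries of a breed lay close together and far from those of the other.

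The 3 members higher in Hulunbuir at day 25 differed by less than 2-fold. MRPS18B was at 14.5, 19.3 and 16.5 CPM in Ujumqin and at 27.1, 25.4 and 21.4 CPM in Hulunbuir (1.51-fold, log2 0.60 ± 0.14, edgeR adjusted p = 0.0093; 0.92 by library totals). MRPL16 was at 38.6, 34.7 and 32.3 against 47.3, 44.99 and 53.2 CPM (log2 0.50 ± 0.10; 0.82 by library totals). MRPS27, a small subunit protein of the pentatricopeptide repeat family, was at 36.3, 33.7 and 33.3 against 43.8, 46.9 and 44.5 CPM (log2 0.43 ± 0.08; 0.75 by library totals). No library overlapped between the breeds in these 3 genes, but they and the lower genes above were named from calls without overlap. Over all 14595 genes tested, 4042 were higher and 4333 lower in Hulunbuir at day 25 without overlap. Of the 64 members these were 4 and 38. When all 12 libraries shared 1 estimate of the spread, MRPL16, MRPS18B, MRPS27 and MRPL21 were no longer called, and the counts were 0 higher and 13 lower. Over all 14595 genes tested that fit called 1150 higher and 1290 lower.

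The count of lower members at day 25 also turned on single libraries. It was 18 without the first Hulunbuir library and 41 without the first Ujumqin library, and 19 or 20 without any other, each by TMM. Counts over all genes tested are not given for these fits, so the swing has no background and may not be particular to the members. That first Ujumqin library held 0.291% of its counts in members, against 0.318 and 0.321% in the other Ujumqin libraries. Summed erythroid markers were 1860 to 2379 FPKM in Ujumqin and 15471 to 18297 FPKM in Hulunbuir at day 25, and yolk sac and liver markers 5206 to 8019 against 19819 to 21308 FPKM. The 10 most abundant genes took 10.3 to 12.3% of counts in Ujumqin and 7.43 to 7.63% in Hulunbuir. The part of these differences in the members' values was not tested.

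**Figure D5:**
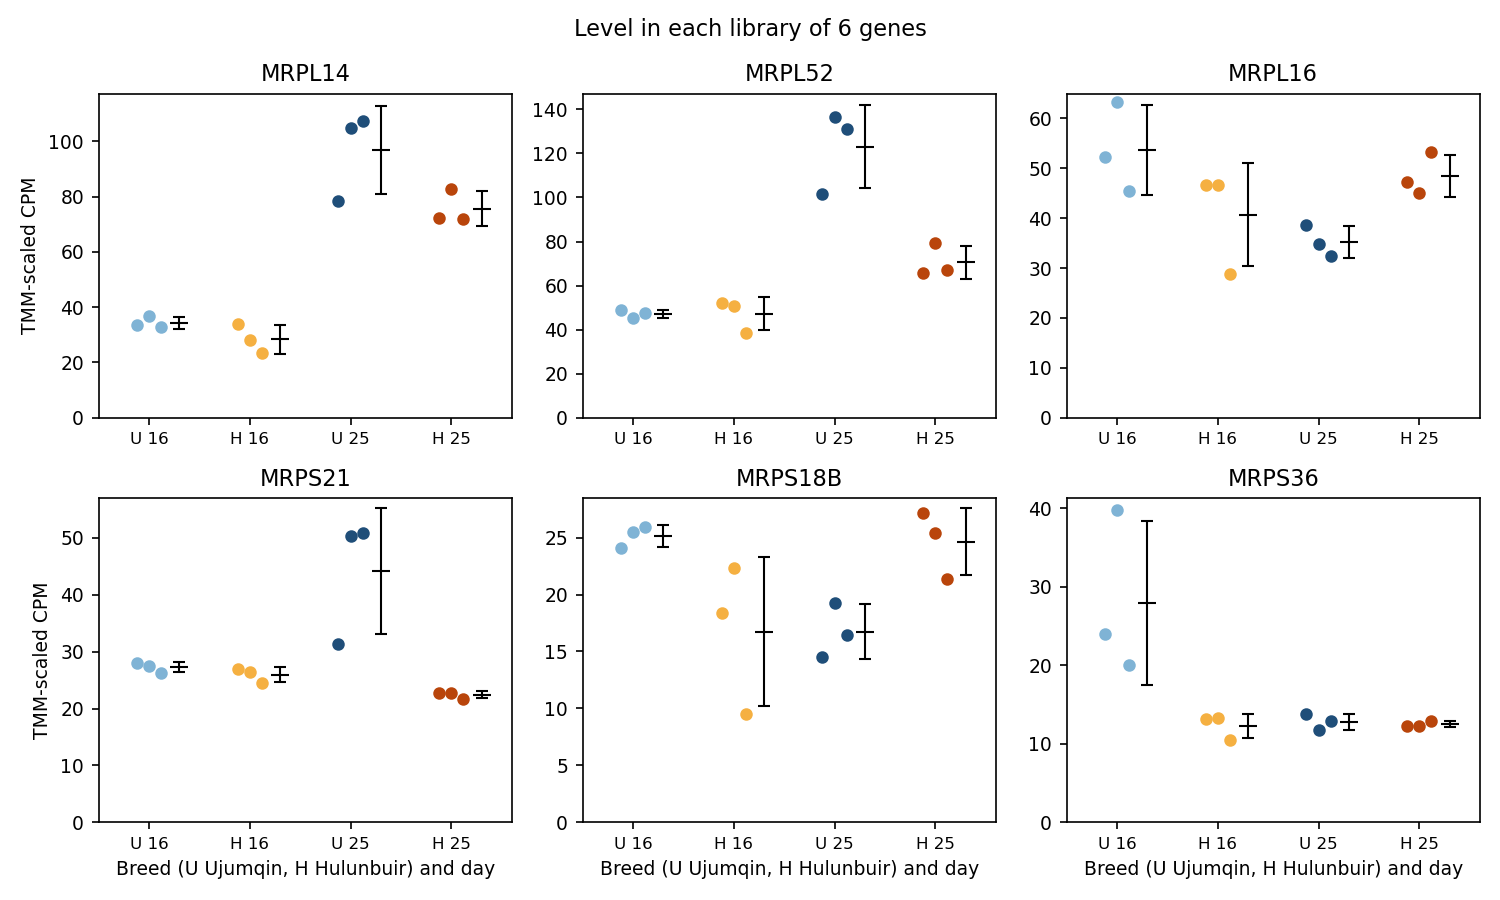
TMM-scaled CPM of 6 genes in each library, with the group mean ± SD of 3 at the right of the points; U is Ujumqin and H is Hulunbuir. MRPL14 and MRPL52 are higher at day 25 than at day 16, MRPS21 is highest in Ujumqin at day 25, and MRPS36 is highest in Ujumqin at day 16.

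The interaction of breed and age asked whether the breed difference changed between the ages. It called 8 members, 2 positive (MRPS36 and MRPS10) and 6 negative (MRPS21, MRPL52, MRPL38, MRPL11, MRPS22 and MRPL20), against 8.89% positive and 10.3% negative calls among all genes tested. The members' own shares were 3.13% and 9.38%. MRPS22, which has no bacterial homolog, was at 47.6, 46.3 and 42.1 CPM in Ujumqin and 51.6, 46.3 and 38.7 CPM in Hulunbuir at day 16. At day 25 it was at 74.5, 73.7 and 79.4 CPM against 46.5, 45.8 and 51.8 CPM. A negative value means by definition that the age change was more positive in Ujumqin than in Hulunbuir. The 6 genes with negative calls differed otherwise: in Hulunbuir the log2 change with age was -0.21 for MRPS21 and 0.79 for MRPL20. All 6 calls were lost on library totals, where 5 members were called positive (MRPL16, MRPS7, MRPS10, MRPS18B and MRPS36) and 0 negative. With the replicate number as a block, MRPL11 and MRPS10 lost their calls (edgeR adjusted p = 0.0586 and 0.0515), and MRPL16 and MRPS18B were called positive (0.0476 and 0.0416). Scaling by library totals moved the share of positive calls over all genes from 46.3% to 73.4%. Without 1 library the count of members ran from 0 to 9, with no counts over all genes given for these fits. It was 0 without replicate 1 or 3 of Hulunbuir or replicate 2 or 3 of Ujumqin at day 25, 1 without the second Hulunbuir library of day 25 or the first Ujumqin library of day 16, and 4 without the first Hulunbuir library of day 16.

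Members with a particular place in the particle varied in their own ways. MRPS18A, MRPS18B and MRPS18C share a bacterial ancestor, and structural work placed MRPS18A in the large subunit. Their levels over 12 libraries were 73.2, 13.1 and 25.8 FPKM. MRPS18A was not called in any comparison, with age changes of 0.34 ± 0.18 in Ujumqin and 0.29 ± 0.18 in Hulunbuir on the log2 scale. MRPS18C rose with age in both breeds (log2 0.91 ± 0.20 and 0.88 ± 0.20) and was lower in Hulunbuir at day 25 by TMM (log2 -0.48 ± 0.12, edgeR adjusted p = 0.0118), though not by library totals (edgeR adjusted p = 0.312) nor without the second Hulunbuir library of that age (edgeR adjusted p = 0.0509). MRPS18B was higher in Hulunbuir at day 25, and its age changes of -0.59 ± 0.26 in Ujumqin and 0.56 ± 0.26 in Hulunbuir were not called.

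MRPS30 is also named for the small subunit and sits in the large one. It had no age call (log2 0.12 ± 0.17 in Ujumqin and 0.14 ± 0.17 in Hulunbuir) and was lower in Hulunbuir at day 25 by TMM (log2 -0.38 ± 0.10, edgeR adjusted p = 0.0144) but not by library totals (log2 -0.05, edgeR adjusted p = 0.663) nor without the first Hulunbuir library of that age (edgeR adjusted p = 0.0649). MRPL12 forms the stalk that recruits translation factors, MRPS12 lies at the decoding centre, MRPL44 resembles ribonuclease III, and MRPL45 anchors the particle to the inner membrane. None of these 4 was called in a comparison by TMM. Their age changes in Ujumqin were 0.08 ± 0.20, 0.46 ± 0.22, 0.18 ± 0.17 and 0.10 ± 0.19 on the log2 scale. By library totals all 4 were higher in Hulunbuir at day 25 (log2 0.42, 0.46, 0.46 and 0.32).

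Of the 12 genes described as mitochondrial ribosomal proteins without the name, 11 were tested, and RefSeq supplied the symbols of those named here. With age 7 rose and 2 fell in Ujumqin, and 4 rose and 1 fell in Hulunbuir. MRPS26 went from 30.2 ± 4.89 to 101 ± 14.9 FPKM (SD, n = 3) in Ujumqin, the largest rise of the 11 (log2 1.89 ± 0.24). MRPL41 went from 86.8 ± 11.0 to 180 ± 5.34 FPKM in Hulunbuir (log2 0.89 ± 0.15). MRPL30 rose there as well (log2 0.70 ± 0.14). At day 25, 1 was higher and 6 were lower in Hulunbuir by TMM, and 5 were higher and 5 lower by library totals. MRPL13 was among those lower by TMM (log2 -0.91 ± 0.12).

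Of 5 mitoribosomal proteins known by other names, 4 rose with age in Ujumqin. CHCHD1 went from 90.9 ± 6.13 to 198 ± 19.99 FPKM (SD, n = 3; log2 1.26 ± 0.14) and AURKAIP1 from 56.4 ± 2.11 to 112 ± 5.98 FPKM (log2 1.13 ± 0.16). In Hulunbuir the same genes rose (log2 0.72 ± 0.14 and 0.73 ± 0.16), and PTCD3 fell with an edgeR adjusted p of 0.0496, a call lost in 11 of 13 other settings. Compared with Ujumqin at day 25, Hulunbuir had 0 of the 5 higher and 3 lower by TMM, and 1 and 2 by library totals.

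The counts for other genes of mitochondrial translation stand beside 30.7% higher and 32.9% lower calls with age among all genes tested in Ujumqin, and 18.9% and 21.6% in Hulunbuir. Of 12 translation factors, 5 rose (41.7%) and 1 fell (8.33%) with age in Ujumqin and 4 rose (33.3%) and 1 fell (8.33%) in Hulunbuir. GFM1, the elongation factor that moves the ribosome along the mRNA, was the one that fell in each, from 20.6 ± 1.41 to 9.54 ± 0.36 FPKM in Ujumqin (SD, n = 3; log2 -0.97 ± 0.13) and from 25 ± 1.39 to 14.9 ± 0.47 FPKM in Hulunbuir (log2 -0.91 ± 0.13). MTRF1L, a release factor, rose in Ujumqin from 19.1 ± 3.73 to 44.9 ± 6.52 FPKM (log2 1.37 ± 0.19). Of 21 genes from a list of mitochondrial aminoacyl-tRNA synthetases, 6 rose (28.6%) and 9 fell (42.9%) in Ujumqin and 1 rose (4.76%) and 5 fell (23.8%) in Hulunbuir. The list was drawn up with amidotransferase subunits (QRSL1, GATB and GATC) and with KARS and GARS, whose products also serve the cytosol. The 1 rise in Hulunbuir was that of KARS (log2 0.45 ± 0.15). EARS2, which charges the tRNA for glutamate, fell in Ujumqin from 10.3 ± 0.85 to 2.35 ± 1.18 FPKM (log2 -2.00 ± 0.32).

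Of 23 genes for mitoribosome assembly and rRNA modification, 5 rose (21.7%) and 3 fell (13.0%) with age in Ujumqin and 3 rose (13.0%) and 2 fell (8.70%) in Hulunbuir. MALSU1, which keeps unfinished subunits apart, rose in both breeds (log2 1.26 ± 0.23 and 0.89 ± 0.23), and RBFA, which acts on the small subunit, fell in both (log2 -0.92 ± 0.20 in Ujumqin and -0.65 ± 0.19 in Hulunbuir). The fall of RBFA in Hulunbuir was lost on library totals (edgeR adjusted p = 0.103) and without replicate 1 or 3 of day 25 (0.0657 and 0.076) or replicate 2 of day 16 (0.0584). Of 17 genes for mitochondrial transcription and RNA upkeep, 6 rose (35.3%) and 5 fell (29.4%) in Ujumqin and 4 rose (23.5%) and 3 fell (17.6%) in Hulunbuir, shares near those of all genes tested. SLIRP, which stabilises mitochondrial mRNA, went from 148 ± 6.20 to 395 ± 39 FPKM in Ujumqin (log2 1.57 ± 0.16). Of 9 regulators of mitochondrial gene expression, 1 rose (11.1%) and 7 fell (77.8%) in Ujumqin and 1 rose (11.1%) and 3 fell (33.3%) in Hulunbuir. GABPA, a factor known to act on promoters of mitochondrial genes, fell from 17.8 ± 1.81 to 3.73 ± 0.85 FPKM in Ujumqin (log2 -2.12 ± 0.25). The 1 regulator that rose there was NRF1, from 6.67 ± 1.98 to 10.5 ± 1.36 FPKM (log2 0.81 ± 0.20). In Hulunbuir GABPA fell (log2 -1.12 ± 0.25) and the 1 that rose was MYC (log2 0.58 ± 0.18).

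Lists of related genes gave these values beside the members. Of the cytosolic ribosomal proteins, in Ujumqin 62 of 63 rose and 0 fell with age (median log2 change 1.40), and in Hulunbuir 40 rose and 0 fell (median 0.59). Of 64 nuclear genes for the respiratory chain, 41 rose and 7 fell in Ujumqin (median 0.82) and 36 rose and 3 fell in Hulunbuir (median 0.62). Of the 13 mRNAs of the mitochondrial genome, the templates of the mitoribosome, 8 rose and 1 fell in Ujumqin (median 1.31), whereas 0 rose and 4 fell in Hulunbuir (median -0.61). Between breeds at day 25, 1 cytosolic ribosomal protein was higher and 58 were lower in Hulunbuir by TMM, and 1 and 47 by library totals. Of the mitochondrial mRNAs 0 were higher and 12 lower by TMM, and 0 and 11 by library totals. Of the respiratory chain genes 6 were higher and 32 lower by TMM, and 19 and 13 by library totals. The differences between these lists and the members were not tested.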

How the data were processed

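The deposited table gives gene-level read counts and FPKM for 12 bulk RNA-seq libraries. Per the labels' protocols, RNA was extracted with TRIzol and libraries followed Illumina protocols. The submitters' processing notes name cutadapt 1.9, FastQC and Oar_v3.1. Which aligner and counter were run, and with which strand setting, is not given in the sources used here, so overlapping genes may share reads. The authors list FPKM as 0.0001 where the count is 0. Columns were matched to samples by the letter and number in the labels.

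Members and gene lists were chosen with earlier results of these data known. Those 14595 genes that reached 1 FPKM in 3 or more of 12 libraries were tested on the deposited counts with edgeR 4.0.16 (TMM, quasi-likelihood test, two-sided) in R 4.3.3. P-values were Benjamini-Hochberg adjusted over all genes tested, with a threshold of 0.05. Breed was tested within the 6 libraries of an age, because the ages differ in spread, and age and the interaction in 12 libraries with 4 group means. The standard error of a log2 change is its size over the root of the F statistic. CPM values use TMM factors over 12 libraries. FPKM alternatives use log2(FPKM + 1). Length is the count over FPKM, scaled by library total (median over libraries). Alternatives were other fits, DESeq2 1.42.0, limma 3.58.1 voom, DESeq2 size factors, no filter and leaving out each library. Library totals in place of TMM were added after the data were seen. The test was checked on simulated data.

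Named members are, for each comparison, called genes without overlap between groups (5 largest per direction, or the 3 smallest p where fewer than 3 were called), the highest and lowest by level, up to 6 called in the interaction and 9 fixed for their place. MRPL11 and MRPS10 are named besides, because their interaction was called. Gene symbols come from the table and, for 1300 unnamed genes, from RefSeq. Same-numbered libraries deviated together between breeds at day 16 (correlations of deviations from the group mean 0.156, 0.307 and 0.381), which was taken as pairing from the data, since the labels do not state it. At day 25 and between ages at least 1 pair was under 0.1. No pair of replicates had counts within sampling noise of each other (chi-square per degree of freedom of at least 17.6), so none were merged as 1 library deposited more than once. That does not show that they are biological replicates. Sequences of the genes were not analysed here.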

Additional observations from a re-analysis of the deposited data

Results flagged for a closer look

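The difference between breeds was itself different at the 2 ages, by the edgeR interaction test, in 8 of 64 members, 2 positive (3.13%) and 6 negative (9.38%). Over all genes tested 8.89% were called positive and 10.3% negative, so these shares are not above the background. Each value is Hulunbuir minus Ujumqin at day 25 less the same at day 16, in log2. It was -0.907 ± 0.25 for MRPS21, -0.801 ± 0.22 for MRPL52, -0.771 ± 0.22 for MRPL38 and -0.755 ± 0.23 for MRPL11. It was -0.665 ± 0.19 for MRPS22 and -0.606 ± 0.18 for MRPL20. In these 6 genes all 3 Ujumqin libraries of day 25 were above all 3 Hulunbuir libraries of that age, while the breeds overlapped at day 16. It was 1.18 ± 0.38 for MRPS10 and 1.15 ± 0.33 for MRPS36, whose Ujumqin libraries of day 16 were above all Hulunbuir libraries of that age and whose breeds overlapped at day 25. Over all 14595 genes tested, 4333 were lower in Hulunbuir without overlap at day 25 and 1924 at day 16. Adjusted p-values in edgeR ran from 0.0271 for MRPS21 to 0.0478 for MRPS10, and with the replicate number as a block MRPL11 (0.0586) and MRPS10 (0.0515) were no longer called. Each call was lost in 6 to 12 of 18 other settings. By library totals the 6 negative calls were lost, with values from -0.62 for MRPS21 to -0.31 for MRPL20, and MRPS10 and MRPS36 remained.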

How the results depend on the processing

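Of the member counts and subunit medians computed under another setting, 173 stayed within 1.5 times the reported count or 1 SD, 25 moved and 4 turned sign. At day 16, 5 members were lower in Hulunbuir with all 12 libraries in 1 fit and 2 by DESeq2, against 0. Over all genes tested the fit of 12 libraries called 1224 lower, and the fit of 6 libraries called 1. At day 25, 0 were higher and 13 lower in 1 fit of 12 libraries, 12 higher and 7 lower on library totals (chosen after the data were seen), and 18 to 41 lower when 1 library was left out. The breed medians at day 25 turned sign on library totals (0.0181 in the large and 0.0181 in the small subunit) and on the deposited FPKM (0.0236 and 0.0282), settings under which the median of all genes was 0.35 and 0.29. With age in Ujumqin the large subunit median was 0.56 on FPKM, and 2 to 5 members fell when 1 library was left out. With age in Hulunbuir the large subunit median was 0.61 on library totals and 0.56 on FPKM, and the small subunit median 0.60 and 0.56, with a range of 0.28 (without Hulunbuir day 16 replicate 3) to 0.49 when 1 library was left out. The interaction called 5 members on library totals, 5 by voom, 4 without the filter and 0 to 9 with 1 library left out. Why these counts moved was not tested. No counts over all genes are given for the fits with 1 library left out, so those member counts stand without a background.

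With the replicate number as a block, the fits called 0 higher and 0 lower members at day 16, 3 and 30 at day 25, 38 and 4 with age in Ujumqin, 27 and 0 with age in Hulunbuir and 8 in the interaction, where MRPL16 and MRPS18B took the place of MRPL11 and MRPS10. Only at day 16 did same-numbered libraries deviate together. Depth limits little here, since each member had at least 39 counts in each library; 3 libraries a group limit the precision.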
